A study of Mus musculus with 6 samples.

Results

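In cultured mouse fetal hepatocytes, 111 mRNAs were kept after a block of transcription in cells with a deletion of Cnot3 (Cnot3KO) and were lost quickly in control cells. They were taken from 18193 genes with a probe set of their own selected on their values on the 0 h and 12 h arrays. Each gene was represented by its brightest probe set that names it alone. A member had a change above -0.3 (log2) after 12 h of actinomycin D (ActD) in Cnot3KO cells, had lost at least 2 (log2, to at most 25%) over the same time in control cells, and lay above the median of its array in control cells at 0 h. These mRNAs are called fully stabilised below, as a name for that rule.

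Cnot3 belongs to the Cnot complex, which removes the poly(A) tail of mRNAs. Loss of the tail is the first and often the slowest step of mRNA decay, after which the cap is removed and the body of the mRNA is degraded. RNA-binding proteins, microRNAs and Btg/Tob proteins bring the complex to chosen mRNAs, many of which encode regulators whose amounts have to change quickly. ActD intercalates into DNA and stops RNA synthesis, so that the fall of an mRNA in its presence is read as decay.

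The Cnot3KO hepatocytes came from E16.5 embryos with floxed Cnot3 alleles and Cre recombinase under the albumin promoter (Alb-Cre), and were left without ActD (0 h) or treated for 6 or 12 h. The control hepatocytes came from control E16.5 embryos, labelled wild type, and were treated for the same times. The study's methods also list floxed animals without Cre and Alb-Cre animals with a wild-type allele as controls, and which of these gave the cells is not stated. Both genotypes were cultured with oncostatin M and dexamethasone. The albumin promoter leaves Cnot3 in other cell types of the liver. According to the study some Cnot3 was still present in livers of this stage, and less of it was found in the cultured Cnot3KO cells than in the control cells. By its account Cnot3 protein fell further during culture and was efficiently suppressed by the time half-lives were measured. Each genotype and time was measured on 1 array, and neither the number of embryos nor their pooling is given in the sources used here. Cnot3 itself had intensities of 174, 174 and 146 at 0, 6 and 12 h in Cnot3KO cells, against 296, 214 and 158 in control cells. Whether its probe set lies in the deleted part is not known, so this is no check of the labels.

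Array medians lay between 69.7 and 72.4. Values are relative within an array, so a loss shared by most mRNAs cannot be seen and an mRNA lost more slowly than most can appear to increase. With 1 array in each group no comparison has an error from replicates. As a guide to measurement error, the SD of 1 probe set was estimated from differences between separate probe sets of a gene. It was 0.34 (log2) for Cnot3KO minus control at 6 h and 0.42 for the difference in 12 h change. This used 4079 genes with both probe sets above all array medians. The difference between probe sets itself has a larger SD. The summed intensity of 8 hepatocyte markers was between 123382 and 129326 on the Cnot3KO arrays, against 119884 to 135601 on the control arrays. Markers of other cell types varied more. The sum of 6 cholangiocyte markers was 1.5 to 1.88 times as high in Cnot3KO as in control cells over the 3 times, and the sums of 8 macrophage, 8 endothelial, 8 stellate and 6 erythroid markers were 0.625 to 0.802, 0.474 to 0.675, 0.458 to 0.763 and 0.552 to 0.718 times as high. The sum of 5 megakaryocyte markers was 0.458 to 0.745 times as high, that of 7 leukocyte markers 0.876 to 1.09 and that of 5 mesothelial markers 0.877 to 1.39 times. Fewer cells of a type and less RNA per cell cannot be told apart in these samples. None of the 61 markers tested in 9 lists was a fully stabilised mRNA, against 0.673% of all genes tested, so nothing is read from this. The part of cell make-up in the values below was not tested.

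Over the 111 mRNAs the median intensity at 0, 6 and 12 h was 576, 411 and 543 in Cnot3KO cells, against 471, 128 and 95.9 in control cells. The median change over 12 h was -0.10 (log2, range -0.30 to 0.58) in Cnot3KO cells and -2.27 (-3.42 to -2.0) in control cells. A median of 93.0% of the 0 h intensity was thus present at 12 h in Cnot3KO cells, against 20.8% in control cells. These values chose the members and carry no test. Read as simple exponential loss, the control values correspond to an apparent half-life of 5.29 h (3.51 to 6.00 h). In Cnot3KO cells 0 of the mRNAs lay below the median of the array at any time, against 44 in control cells at 12 h.

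**Figure D1:**
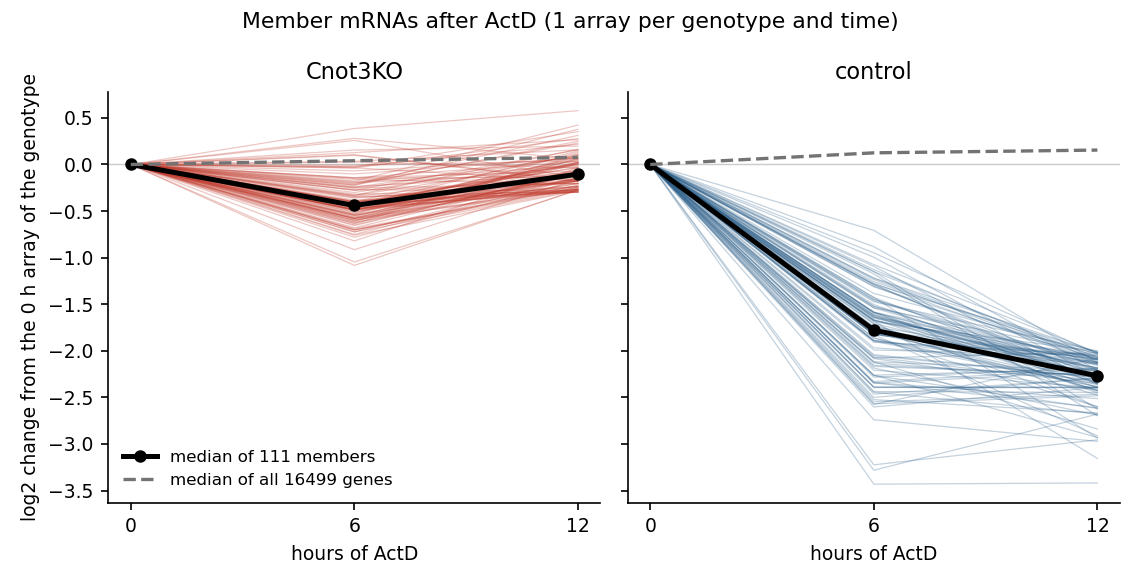
Change in log2 intensity from 0 h against hours of ActD, in Cnot3KO (left) and control cells (right), 1 thin line for each of the 111 mRNAs, with their median (black) and the median of all 16499 genes tested (dashed). At 12 h the medians of the 111 were -0.10 in Cnot3KO and -2.27 in control cells.

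The 111 were a minority of unstable mRNAs. Of 16499 genes above the 20th percentile on at least 1 array, 775 (4.7%) met the control side of the rule and 111 (0.673%) the whole rule. Thus 14.3% of the mRNAs that were short-lived in control cells were fully stabilised. Another 600 were partly stabilised, with a 12 h change in Cnot3KO cells between the limits of -0.3 and -2. The last 64 had lost at least 2 (log2) in both genotypes. With the genotypes exchanged the rule found 1 gene. This was Msi2, which encodes an RNA-binding protein, with intensities of 473, 278 and 106 at 0, 6 and 12 h in Cnot3KO cells, against 730, 747 and 665 in control cells. A linear model with a genotype by time term (limma, 2 residual degrees of freedom) called 0 of 16499 genes (0%) after Benjamini-Hochberg adjustment, and 0 of the 111, with 2924 genes and 97 of the 111 at an unadjusted p under 0.05. It rests on the values that chose the members.

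**Figure D2:**
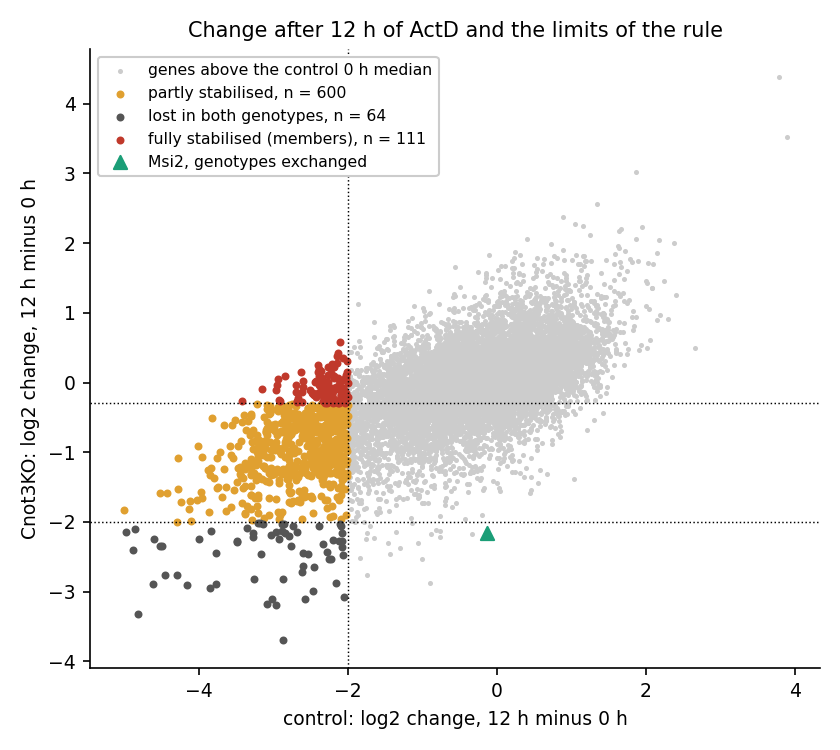
Change in log2 intensity from 0 to 12 h in Cnot3KO cells (vertical) against control cells (horizontal), 1 point per gene above the control 0 h median, with the limits of the rule as dotted lines. The 111 fully stabilised mRNAs fill the region left of -2 and above -0.3, beside 600 partly stabilised mRNAs and 64 lost in both genotypes.

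The limits cut through a continuum. Just inside the control limit lay AI661453 (-2.0), Mgat1 (-2.01) and Capn10 (-2.02), and just outside it Pard6b (-2.0 when rounded), Tmem168 (-1.99) and Zfp866 (-1.99). Slc4a1ap, Cebpg and Crk were inside the Cnot3KO limit and Rbm12b1 and Cry1 outside it, all at -0.30 when rounded, with Kdm5b outside at -0.31. The least intense members at 0 h in control cells were Zfp946 (104.7), Dse (106) and Tyw3 (117), against an array median of 71.2. Without that floor the same 111 genes met the rule.

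The limits of the rule did not use the 6 h arrays, which entered only the mean that chose each gene's probe set. There the 111 mRNAs were already apart. Cnot3KO cells exceeded control cells by a median of 3.13-fold (range 1.37 to 12.0), and 108 of 111 were over 1.5-fold higher, against 17.8% of all genes tested, 71.7% of the partly stabilised mRNAs and 35.9% of those lost in both genotypes. The exceptions were Jag1 (0.47, log2 Cnot3KO minus control), Fam120b (0.45) and Slc26a1 (0.56). All 3 were higher in Cnot3KO cells by more than the SD of 1 probe set given above. That SD is smaller than the SD of the difference between probe sets. In Cnot3KO cells 2 of 111, Pogz and Frmd4b, had lost at least 1 (log2) by 6 h, against 2.67% of all genes tested and 40% of the partly stabilised mRNAs. In control cells 107 of 111 had done so, against 8.99% of all genes tested. The share in control cells was also high in the other short-lived sets, 89.5% of the partly stabilised mRNAs and 87.5% of those lost in both genotypes. Because 6 h lies between the times that chose the genes, and each genotype shares its 0 h array with the rule, these counts are not fully independent of it.

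**Figure D3:**
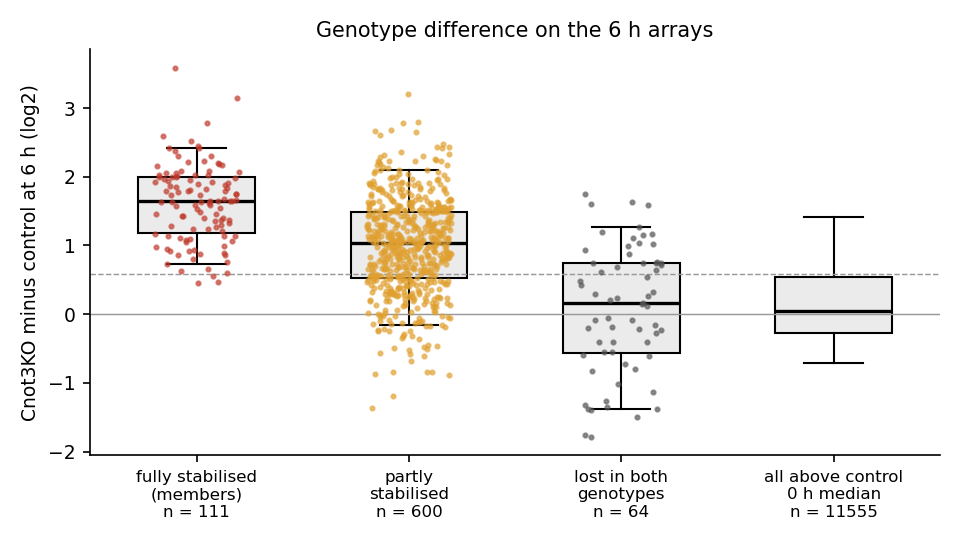
Log2 intensity in Cnot3KO minus control cells at 6 h of ActD for the mRNAs fully stabilised, partly stabilised or lost in both genotypes, and for all genes above the control 0 h median. Boxes show the quartiles and median, whiskers the 5th and 95th percentiles, points single genes and the dashed line 1.5-fold, and 108 of the 111 fully stabilised mRNAs lie above that line.

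Before ActD, Cnot3KO cells exceeded control cells by a median of 1.14-fold (range 0.441 to 2.52). Of the 111, 17 were over 1.5-fold higher, against 6.71% of all genes tested, and 2 over 1.5-fold lower, against 2.92%. The 0 h arrays enter the rule, so nothing is read from these counts. Apol7a, of the apolipoprotein L family, and Jag1 mark the extremes. Apol7a had a 0 h intensity of 536 in Cnot3KO cells, against 213 in control cells, and Jag1 one of 264 in Cnot3KO cells, against 598 in control cells.

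In control cells a median of 76.5% of the 12 h change (log2) had taken place by 6 h, against 68.7% for the partly stabilised mRNAs and 66.3% for those lost in both genotypes. At least 90% had taken place for 30 of the 111 mRNAs (27.0%), against 14.2% of the partly stabilised mRNAs and 15.6% of those lost in both genotypes. These differences were not tested. The median intensity left at 6 h was 29.2% of that at 0 h in control cells, and the half-life read from 6 h was 3.38 h. Pogz, a zinc finger protein of heterochromatin, stood at 266, 126 and 221 at 0, 6 and 12 h in Cnot3KO cells, against 334, 31.0 and 31.3 in control cells. Its control value had reached its final level by 6 h. Another Pogz probe set above the array median changed over 12 h by 0.51 (log2) in Cnot3KO and -0.08 in control cells. Only 8 of the 111 had at most 50% of their control change by then. One was Fbxl20, an F-box adaptor of a ubiquitin ligase, with 1072, 741 and 1115 in Cnot3KO cells, against 685, 255 and 89.5 in control cells. Its other bright probe set showed hardly any change, -0.11 (log2) in Cnot3KO and -0.26 in control cells over 12 h.

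Most of the 111 mRNAs dipped at 6 h in Cnot3KO cells. In 99 of 111 mRNAs the 6 h value lay below both the 0 h and the 12 h value in Cnot3KO cells, against 24.4% of all genes tested, 47.7% of the partly stabilised mRNAs and 21.9% of those lost in both genotypes. In control cells this held for 15 of 111, against 13.4% of all genes tested. The rule requires a low 12 h value in control cells, which leaves little room for a lower 6 h value there. The 12 h limits also shape the shares of the other sets. Nothing is therefore read from the difference in these counts between genotypes or sets. The median Cnot3KO change was -0.44 (log2, range -1.08 to 0.39) from 0 to 6 h and 0.37 from 6 to 12 h. The rule keeps mRNAs with a high 12 h value and a low 0 h value in Cnot3KO cells, which fixes part of the second step. Mcl1 and Arf6 had this shape. The mRNAs with the larger 6 h loss in control cells tended to have the larger one in Cnot3KO cells, with r = 0.43 over the 111 genes and 0.54 over all 775 mRNAs short-lived in control cells. The genes share the arrays and are not independent replicates. A median of 73.7% of the 0 h intensity was left at 6 h in Cnot3KO cells.

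The highest intensities belonged to genes of metabolism, survival and signalling. Hmgcs1, the cytosolic HMG-CoA synthase of cholesterol synthesis, stood at 11704, 9697 and 9617 at 0, 6 and 12 h in Cnot3KO cells, against 11761, 6380 and 2549 in control cells. Mcl1, an anti-apoptotic member of the Bcl2 family with a short-lived mRNA and protein, stood at 8368, 5668 and 8736 in Cnot3KO cells, against 7556, 1553 and 1661 in control cells. The control loss of Mcl1 was complete by 6 h, whereas Hmgcs1 was lost further between 6 and 12 h. Hmgcs1 was 1.52-fold higher in Cnot3KO than in control cells at 6 h, among the 5 smallest differences of the set, and Mcl1 3.65-fold. Caap1, a modulator of caspase activity, stood at 225, 197 and 211 in Cnot3KO cells, against 291, 91.0 and 32.7 in control cells. Its difference in 12 h change was 3.06 (log2), second by the brightest probe sets to Pogz with 3.15.

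**Figure D4:**
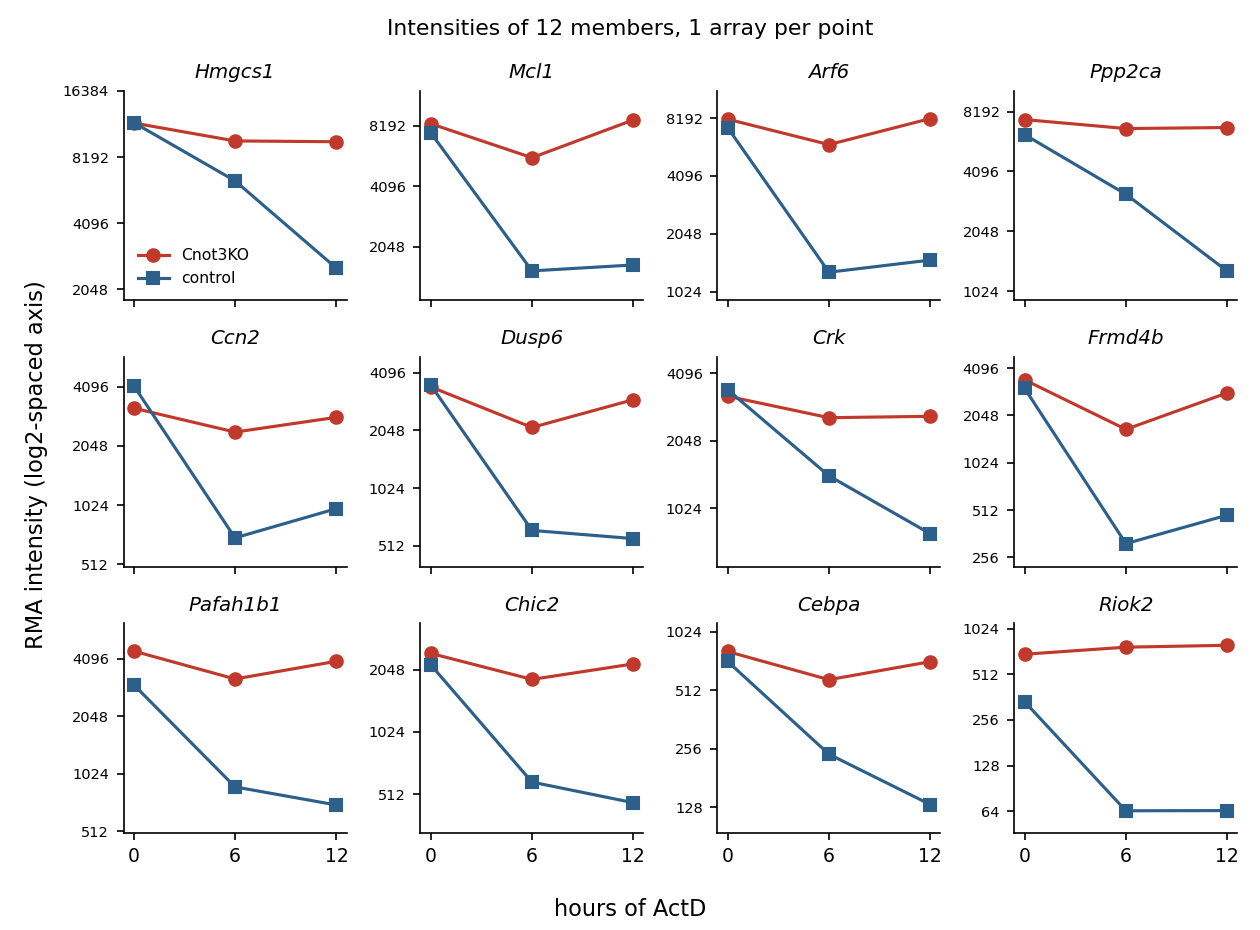
Intensity on a log2-spaced axis against hours of ActD for 12 fully stabilised mRNAs, Cnot3KO in red circles and control in blue squares, 1 array per point. These are the 10 most intense members in control cells at 0 h, with Cebpa and Riok2, and the Cnot3KO point lies above the control point at 6 and 12 h in every panel.

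Adaptors, kinases, phosphatases and small GTPases formed the largest role group, with 18 members and a median Cnot3KO minus control value at 6 h of 1.44 (log2, range 0.63 to 2.21). Role groups were given to members only, so the sizes of the groups have no share over all genes beside them. Arf6, a GTPase of endocytosis and the cell cortex, stood at 8088, 5961 and 8144 at 0, 6 and 12 h in Cnot3KO cells, against 7314, 1292 and 1494 in control cells. Ppp2ca, the catalytic subunit of phosphatase PP2A, stood at 7465, 6730 and 6810 in Cnot3KO cells, against 6276, 3147 and 1292 in control cells. In control cells the loss of Arf6 was complete by 6 h and that of Ppp2ca went on to 12 h. Dusp6, the phosphatase that inactivates ERK and is induced by it, stood at 3457, 2121 and 2963 in Cnot3KO cells, against 3541, 616 and 558 in control cells. Its relative Dusp4, which acts on nuclear MAP kinases, stood at 259, 222 and 336 in Cnot3KO cells, against 202, 66.9 and 45.5 in control cells. Both phosphatases had 0 h levels within 1.5-fold between genotypes, and the control values alone were low at 6 and 12 h. The SH2 and SH3 adaptor Nck1 had 628, 405 and 671 in Cnot3KO cells, against 463, 107 and 64.6 in control cells. Crk, another such adaptor, had 3232, 2593 and 2630 in Cnot3KO cells, against 3457, 1429 and 789 in control cells. Crk was among the smaller 6 h differences, 1.81-fold, and Nck1 3.80-fold. Dyrk2, a kinase that primes substrates for further phosphorylation, had 1442, 817 and 1406 in Cnot3KO cells, against 1998, 214 and 258 in control cells. Rasa1, the GTPase-activating protein of Ras, was 2.50-fold and Sik1, a salt-inducible kinase of the AMPK family, 1.54-fold higher in Cnot3KO cells at 6 h.

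RNA processing and protein synthesis genes, 14 in number, had a median Cnot3KO minus control value at 6 h of 1.96 (log2, range 1.13 to 3.59). In a list of 328 RNA-binding proteins and splicing factors 30 were short-lived in control cells and 2 were members. These 2 were 0.61% of the list, against 0.673% of all genes tested. Riok2, an atypical kinase that matures the small ribosomal subunit, had the largest 6 h difference of all 111. It stood at 694, 773 and 796 at 0, 6 and 12 h in Cnot3KO cells, against 338, 64.3 and 64.5 in control cells. Cwc22, which brings the exon junction complex to the spliceosome, followed with 283, 240 and 263 in Cnot3KO cells, against 181, 27.1 and 23.1 in control cells. Its control values at 6 and 12 h lay near the 20th percentiles of those arrays, 21.5 and 22.4. For Riok2 and Cwc22 the Cnot3KO values changed little while the control values had reached a low level by 6 h. Lsm8, of the ring that binds U6 snRNA, had 1042, 900 and 1222 in Cnot3KO cells, against 1068, 238 and 222 in control cells. Eif1a, a factor for scanning by the small ribosomal subunit, had 2040, 1413 and 2235 in Cnot3KO cells, against 2144, 422 and 459 in control cells. Rnpc3, a component of the minor spliceosome, had 274, 279 and 267 in Cnot3KO cells, against 293, 80.4 and 55.9 in control cells. The 0 h values of these 3 were nearly equal between genotypes. Tyw3, which modifies phenylalanine tRNA, was 5.75-fold higher in Cnot3KO cells at 6 h, at intensities of 194 in Cnot3KO and 33.8 in control cells. Ppwd1, a prolyl isomerase of the spliceosome, had 199, 259 and 296 in Cnot3KO cells, against 215, 98.5 and 50.1 in control cells, and so moved apart in both directions.

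Transcription regulators made up the next groups. The 12 sequence-specific factors and zinc finger proteins had a 6 h median of 1.69 (log2, Cnot3KO minus control). Cebpa, which drives hepatocyte and adipocyte genes, stood at 812, 581 and 719 at 0, 6 and 12 h in Cnot3KO cells, against 722, 240 and 132 in control cells. Its dimer partner Cebpg had 673, 510 and 547 in Cnot3KO cells, against 645, 128 and 141 in control cells. Foxa3, a forkhead factor of liver genes, had 1891, 1252 and 1566 in Cnot3KO cells, against 1347, 280 and 219 in control cells. For all 3 liver factors both Cnot3KO values under ActD lay above both control values. Hsf2, a heat shock factor, had 218, 165 and 213 in Cnot3KO cells, against 161, 35.4 and 24.9 in control cells. Tfec, a relative of Mitf, had 141, 144 and 157 in Cnot3KO cells, against 202, 91.2 and 32.8 in control cells. The 6 numbered zinc finger genes Zfp280c, Zfp655, Zfp644, Zfp383, Zfp946 and Zfp638 were between 2.70-fold and 5.20-fold higher in Cnot3KO cells at 6 h.

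The 4 genes of the general transcription machinery had a 6 h median of 2.13 (log2). Cdk7, the kinase of TFIIH that phosphorylates RNA polymerase II, stood at 2185, 1345 and 1845 at 0, 6 and 12 h in Cnot3KO cells, against 1392, 290 and 183 in control cells. Another Cdk7 probe set above the array median went the other way, with 12 h changes of -0.40 (log2) in Cnot3KO and -0.19 in control cells and a Cnot3KO minus control value of -0.50 at 6 h. Med17, of the Mediator head, had 1328, 1078 and 1419 in Cnot3KO cells, against 759, 238 and 167 in control cells. By their brightest probe sets Cdk7 and Med17 began higher in Cnot3KO cells, as did the TFIIE subunit Gtf2e1 (1056 in Cnot3KO and 765 in control cells at 0 h). Among 9 chromatin proteins the 6 h median was 1.79. Rnf2, the ubiquitin ligase of Polycomb repressive complex 1, had 1541, 1502 and 1869 in Cnot3KO cells, against 1292, 330 and 293 in control cells. Ing2, a reader of methylated histone H3, had 1526, 1092 and 1438 in Cnot3KO cells, against 929, 262 and 214 in control cells. Kdm2b, a demethylase that binds CpG islands, differed least in this group, with 411 in Cnot3KO and 248 in control cells at 6 h.

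Genome maintenance and chromosome segregation held 7 members, with a 6 h median of 2.0 (log2). Terf1, a telomere-binding protein of shelterin, stood at 429, 461 and 377 at 0, 6 and 12 h in Cnot3KO cells, against 236, 76.3 and 43.7 in control cells. Nbn, of the complex that senses double-strand breaks, had 305, 371 and 318 in Cnot3KO cells, against 262, 92.4 and 51.3 in control cells. Fancf, of the Fanconi anaemia core complex, had 410, 280 and 369 in Cnot3KO cells, against 246, 40.5 and 46.8 in control cells. Terf1 and Fancf were 6.05-fold and 6.91-fold higher in Cnot3KO cells at 6 h, among the 5 largest differences. Spc25, a kinetochore protein, had 1366, 1634 and 1238 in Cnot3KO cells, against 1636, 725 and 252 in control cells. Of the ubiquitin and SUMO system, 8 members had a 6 h median of 1.72. Rnf4, which ubiquitinates SUMO-modified proteins, had 1327, 1304 and 1542 in Cnot3KO cells, against 1449, 420 and 319 in control cells. Vcpip1, a deubiquitinase, had 1076, 661 and 897 in Cnot3KO cells, against 881, 162 and 138 in control cells.

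Ligands, receptors and channels, 5 in number, stood closest at 6 h, with a median of 1.14 (log2). Ccn2, a matricellular protein and target of Yap, stood at 3186, 2407 and 2862 at 0, 6 and 12 h in Cnot3KO cells, against 4151, 697 and 982 in control cells. Jag1, a Notch ligand, had 264, 233 and 353 in Cnot3KO cells, against 598, 169 and 137 in control cells. Both were lower in Cnot3KO cells at 0 h and higher at 6 and 12 h. Ankrd1, another target of Yap, had 882, 964 and 1061 in Cnot3KO cells, against 1404, 482 and 302 in control cells, and so crossed in the same way. The other 13 genes of metabolism, organelles and cytoskeleton were between 1.52-fold and 3.94-fold higher in Cnot3KO cells at 6 h, among them Pex3 and Pex26 of peroxisome assembly (2.30-fold and 2.35-fold). A further 18 members were given no role. The most intense of these was Frmd4b, a FERM domain protein, with 3449, 1670 and 2848 in Cnot3KO cells, against 3048, 314 and 476 in control cells.

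Of 30 function lists, 18 held a member, and 34 of the 111 were in at least 1 list. Over all genes tested 4.7% were short-lived in control cells, 0.673% were members, and the median 12 h change was 0.08 (log2) in Cnot3KO and 0.15 in control cells. Of 30 liver transcription factors 10 were short-lived in control cells and 3 were members, and the list's median 12 h change was -0.29 in Cnot3KO and -1.34 in control cells. Of 70 mRNAs of the immediate early and AU-rich kind, known for rapid decay, 4 were short-lived by the rule and 2 (Mcl1 and Ccn2) were members, with medians of 0.16 in Cnot3KO and -0.13 in control cells. Of 69 feedback inhibitors of signalling 13 were short-lived and 2 (Dusp4 and Dusp6) were members. Of 373 numbered zinc finger genes 15 were short-lived and 6 were members. Other lists held short-lived mRNAs without a member. These were G2/M and cytokinesis (11 of 67 short-lived), the MAP kinase pathway (11 of 56), the circadian clock (6 of 21), the genes the study followed (4 of 33), G1/S and DNA replication (3 of 67) and Cnot subunits (1 of 10). Of these short-lived mRNAs 1, in the circadian clock list, was lost in both genotypes and the others were partly stabilised. The G2/M and cytokinesis list had a median Cnot3KO minus control value at 6 h of 0.79 (log2). The member Spc25, a kinetochore protein, was not in that list. Cytosolic ribosomal proteins (47 tested), respiratory chain subunits (81), proteasome subunits (42), plasma proteins (64), cytokines and their receptors (183) and interferon-stimulated genes (47) had 0 short-lived mRNAs each.

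Among the mRNAs short-lived in control cells, the fully stabilised ones came from the shorter loci, though these were longer than those of the typical gene. The median locus length in the RefSeq annotation (GRCm38.p6) was 32.5 kb (quartiles 14.9 and 51.1 kb) for the 111, against 80.2 kb for the partly stabilised mRNAs and 219 kb for those lost in both genotypes. All genes tested had a median of 20.7 kb and genes above the control 0 h median one of 22.8 kb. Loci over 100 kb made up 5.41% of the 111, 35.5% of the partly stabilised mRNAs and 76.6% of those lost in both genotypes, against 12.2% of all genes tested. Of the mRNAs short-lived in control cells, 36% under 10 kb, 37.6% of 10 to 30 kb and 14.4% of 30 to 100 kb were fully stabilised, against 2.15% of 100 to 300 kb and 2.94% above. Locus length was not part of the rule. Over these classes the median 6 h change was -0.62, -0.43, -0.78, -1.18 and -1.5 (log2) in Cnot3KO cells and -1.90, -1.65, -1.78, -1.88 and -1.92 in control cells. The median 12 h change was -0.56, -0.37, -0.68, -1.30 and -1.90 in Cnot3KO cells and -2.26, -2.31, -2.49, -2.66 and -2.77 in control cells. These mRNAs were chosen by a limit on the control change and not on the Cnot3KO change, so the genotypes cannot be compared in this. The part of locus length in the result was not tested.

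**Figure D5:**
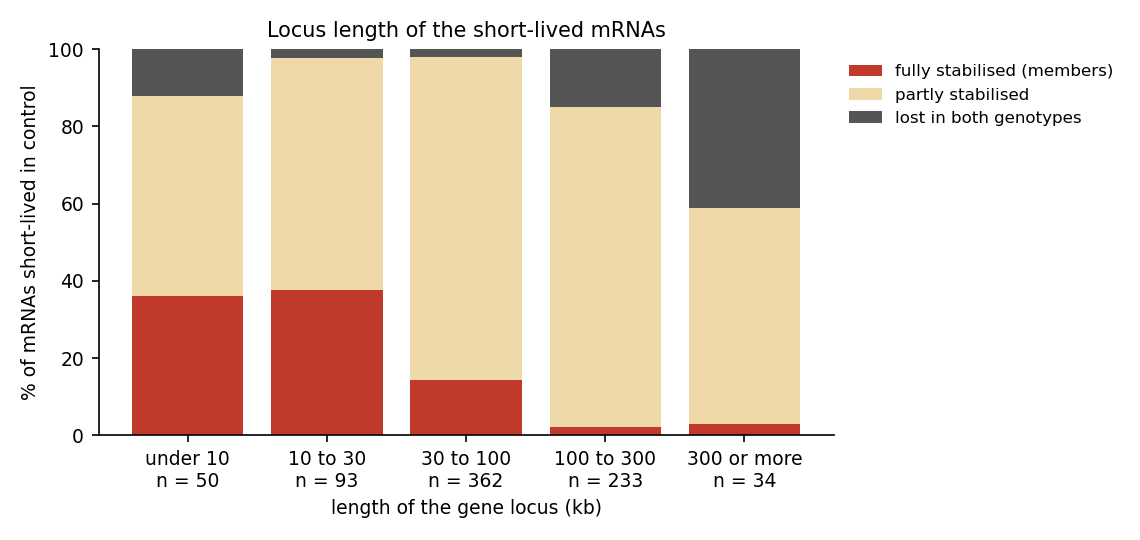
Share of the mRNAs short-lived in control cells that were fully stabilised (red), partly stabilised (sand) or lost in both genotypes (grey), by length of the gene locus in kb, with the number of genes under each bar. The fully stabilised share was 36% and 37.6% in the classes below 30 kb and 2.15% and 2.94% in those from 100 kb.

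Promoter windows (250 bases before to 50 after a start site, RefSeq, GRCm38.p6) were at hand for 96 of the 111 genes. The word CCGGAAG, the core that ETS factors bind, on either strand was in 22.9% of the 96, against 14.2% of the partly stabilised, 6.25% of the 48 genes lost in both genotypes, 19.8% of genes above the control 0 h median and 9.93% of all promoters in the table. The Sp1-type word GGGCGG was in 68.8% of the 96, CCAAT in 47.9%, TATAAA in 8.33% and the E-box CACGTG in 9.38%, against 68.4%, 42.4%, 9.08% and 11.9% of genes above the control 0 h median and 38.2%, 41.1%, 15.7% and 8.09% of all promoters. All 5 words were searched on both strands, and none contains another. The members' promoters thus resembled those of other expressed genes in these words. The median ratio of observed to predicted CpG was 0.85 for the 96, 0.86 for the partly stabilised, 0.71 for the 48 and 0.79 for genes above the control 0 h median. Windows around this word are shown, since it is the word whose share differed most between members and mRNAs lost in both genotypes. Windows were kept for only some of the 22 carriers, so a more intense carrier may be missing. The windows shown belong to the 6 with the highest control 0 h intensity among the carriers with a kept window. They are written 5′ to 3′ on the gene's strand with the word or its reverse complement in capitals, at chr13:119690244-119690290 (plus strand), chr3:95658638-95658684 (plus), chr5:75044773-75044819 (minus), chr5:34336252-34336298 (plus), chr11:49244136-49244182 (plus) and chr13:100731033-100731079 (minus).
Hmgcs1: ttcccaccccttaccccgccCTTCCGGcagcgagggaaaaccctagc
Mcl1: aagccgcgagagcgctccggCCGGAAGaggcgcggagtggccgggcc
Chic2: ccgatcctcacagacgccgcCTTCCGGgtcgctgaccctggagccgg
Rnf4: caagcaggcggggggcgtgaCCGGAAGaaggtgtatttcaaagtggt
Mgat1: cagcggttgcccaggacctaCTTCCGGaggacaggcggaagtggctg
Cdk7: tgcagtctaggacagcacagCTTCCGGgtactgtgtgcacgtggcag

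Other probe sets gave smaller values. Of the 111 genes 80 had another probe set, and 54 of these lay above the control 0 h median. Over the 54 the median 12 h change was -0.10 (log2) in Cnot3KO and -1.63 in control cells, and the difference in change was above 0 for 49 and above 1 for 37. At 6 h 34 of the 54 were over 1.5-fold higher in Cnot3KO cells, with a median of 0.95. These probe sets were read on the same arrays and so share the contrast that chose the genes. The other probe set met the whole rule for 8 genes, Arf6, Frmd4b, Eif1a, Rnf2, Otud4, Vcpip1, Ankrd1 and Rnpc3. For 5 of the 54 the difference in change was not above 0, namely Smarcad1 (-1.03, log2), Gin1 (-0.21), Cdk7 (-0.21), Ggnbp2 (-0.16) and Zfp655 (-0.02). Smarcad1, a chromatin remodeller, changed by -0.02 in Cnot3KO and 1.01 in control cells over 12 h on that probe set. Among the other genes with values above whose other probe set lay above the median, the difference on it was 0.15 for Fbxl20, 0.16 for Capn10, 0.59 for Pogz, 0.61 for Terf1 and 0.81 for Ppp2ca. Where the other probe set lay below the median, the difference ranged from -1.69 for Gtf2e1 to 1.58 for Slc26a1. Of the probe sets that represent the 111 genes, 34 carried a suffix for sequence shared between transcripts, 23 with a and 11 with s.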

How the data were processed

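Total RNA of fetal hepatocytes was hybridised to Affymetrix Mouse Genome 430 2.0 arrays. The authors summarised each probe set by RMA (Robust Multi-array Average), in software whose version is not given in the sources used here, and deposited linear intensities. RMA equalises the distributions of the arrays. Here log2 was taken. Of 45037 probe sets 34945 name 1 gene in the platform annotation, 932 several and 9160 none. Of the probe sets naming a gene alone, the one with the highest mean stood for it, and 16499 genes exceeded the 20th percentile on at least 1 array. All 111 members matched the RefSeq gene table (GRCm38.p6). The genotype by time term was fitted with limma 3.58.1 (R 4.3.3) over all genes, with Benjamini-Hochberg adjustment, and tested on simulated data. Other values were computed with Python 3.11.15.

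The members and gene lists were chosen with earlier results of these data known, and role groups were given to members after their names were seen. Genes are named as the 10 with the largest difference in change, the 10 most intense, those whose other probe set meets the rule, up to 3 per list, the 5 highest and 5 lowest at 6 h, the 3 on each side of a limit, and Cnot3. Spc25, Gtf2e1, Apol7a, Gin1, Ggnbp2, Pex3, Pex26, Zfp383, Zfp638 and Nbn were named after their values were seen, the last for moving apart in both directions. Gapdh shares its probe sets with other symbols and is not named. The number of arrays limits the precision. Alternatives changed the probe set, the centring, the limits, the floor and an offset.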

Additional observations from a re-analysis of the deposited data

Results flagged for a closer look

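For 5 of the 111 mRNAs the genotypes moved in opposite directions at both times, higher than at 0 h in Cnot3KO cells and lower in control cells. The Cnot3KO change at 6 h was 0.034 (log2) for Tfec, 0.39 for Ppwd1, 0.16 for Riok2, 0.13 for Ankrd1 and 0.28 for Nbn. The 12 h arrays of this difference chose the genes, and with 1 array in each group the difference was not tested. The Cnot3KO changes of Tfec, Riok2 and Ankrd1 at 6 h are below the SD of 0.22 for 1 probe set, estimated from differences between probe sets of a gene. At 12 h those of Tfec (0.16), Riok2 (0.20) and Nbn (0.06) are below the SD of 0.25 for that change.

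Among the 10092 probe sets that name several genes or none, which no comparison above uses, 12 met the rule and 0 met it with the genotypes exchanged. At 6 h they were higher in Cnot3KO than in control cells by a median of 1.38 (log2, range 0.52 to 2.26).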

How the results depend on the processing

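Over the alternatives no count or median reversed. The number of fully stabilised genes was 111, and 47 with probe sets averaged per gene (37 shared), 64 with arrays centred on Gapdh (through a probe set that also names other symbols), 321 and 19 with a control limit of -1.5 and -2.5, and 37 and 213 with a Cnot3KO limit of 0 and -0.5. It was 94 with probe sets free of suffixes (79 shared), 110 with centring on ribosomal protein genes (86 shared) and 77 with 16 added to each value (75 shared). On the brightest other probe set, at hand for 80 of the 111, 35 genes were over 1.5-fold higher in Cnot3KO cells at 6 h, 0 had lost at least 1 (log2) by 6 h in Cnot3KO cells and 31 in control cells, and the medians were 0.49 for Cnot3KO minus control at 6 h and, for the 6 h change, -0.13 in Cnot3KO and -0.74 in control cells. With probe sets averaged per gene 0 had lost at least 1 in Cnot3KO cells and 69 in control cells, and the medians were 1.03 for Cnot3KO minus control and -1.15 for the control change. The count of 2 in Cnot3KO cells was 0 without suffixes, 1 with centring on Gapdh and 1 with the offset. The causes were not tested. The limma fit called 0 genes under each of its 6 alternatives, with 2527 to 3107 genes at an unadjusted p under 0.05. No paired analysis was possible because each genotype and time has 1 array and the labels carry no replicate numbers. For the same reason no replicate could be left out. Signal limits the lowest values, since 2 of the 111 lay below the 20th percentile of the array in control cells at 12 h.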
